A study of Mus musculus with 9 samples.

Results

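The genes followed here work in replication licensing: Mcm2, Mcm3, Mcm4, Mcm5, Mcm6 and Mcm7, which encode the subunits of the MCM helicase, Mcm10, Cdc6, Cdt1 and Gmnn. They were chosen by symbol, and each symbol matched 1 row of the count tables, so that they make up 10 of the 56262 genes listed. RNA was measured in bone marrow cells of C57BL/6 WT mice that the labels call long-term hematopoietic stem cells, the rare cells that sustain blood formation, sorted as lineage-negative, Sca1+, c-Kit+ and CD150+ with a last marker written C48-. Control mice were untreated. Mice of the group 5-FU+Saline were given 5-FU (5-fluorouracil, a drug that blocks thymidylate synthesis and kills dividing cells) at 250 mg/kg and then PBS. Mice of the group 5-FU+FMT were given the same dose of 5-FU and then FMT, an agent that the labels do not spell out, injected into a vein at 5 mg/kg on day 1, day 4 and day 7. Cells were sorted from the treated mice on day 8, and each group held 3 libraries. The 2 treated groups are called saline and FMT from here on. The labels do not say whether the libraries came from separate mice, so the p-values measure the spread between libraries, which may be technical.

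Licensing marks each origin of replication as ready for use before S phase. The origin recognition complex and Cdc6 sit on the DNA, and Cdt1 brings in the ring of MCM2 to MCM7, which is loaded as an inactive double ring around the DNA. Kinases, Cdc45, the GINS complex and MCM10 later turn the loaded ring into the moving helicase, while geminin, the product of Gmnn, binds Cdt1 and blocks loading again until the next cell cycle. Most long-term stem cells of an undisturbed marrow rest outside the cycle, and resting cells hold few MCM proteins. E2F transcription factors are known to drive many of these genes when cells enter the cycle.

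The promoters were searched for E2F words as a description, with no test of a link to the changes in RNA. Promoters of 300 bases, from 250 before to 50 after a start site, were taken from RefSeq (GRCm38.p6, the build of the count tables) and were found for 8 of the 10 genes; Mcm4 and Gmnn had no entry. They were searched on both strands for 4 forms of the E2F site: the word TTCCCGC, the word TTCGCGC, the word TTGCCGC and the word TTGGCGC, which can overlap each other on opposite strands. At least 1 of these words was found in 7 of the 9 promoters of these genes (77.8%), or 6 of 8 genes, and in 9.57% of the 32851 promoters of this length. The sequences below, each 5′ to 3′ on the strand of the gene with the words in capitals, are shown because 1 arrangement recurs: in Mcm6, Mcm5, Mcm7 and Mcm3 a word on one strand overlaps a word on the other strand.
Mcm6, chr1:128359795-128359824, minus strand, upstream of the start: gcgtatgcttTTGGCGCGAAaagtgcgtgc
Mcm6, chr1:128359732-128359761, minus strand, upstream of the start: ttggacgggtTTGGCGCGAAgtagctcagc
Mcm5, chr8:75109347-75109376, plus strand, upstream of the start: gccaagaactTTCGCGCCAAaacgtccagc
Mcm7, chr5:138171847-138171876, minus strand, just after the start: gtgacgacgtTTCGCGCCAAtttcggttgg
Mcm3, chr1:20820263-20820283, minus strand, just after the start: ttgggaagttTTGGCGCCAAg
Cdt1, chr8:122568037-122568064, plus strand, just after the start: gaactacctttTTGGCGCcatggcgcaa
Cdc6, chr11:98908002-98908030, plus strand, upstream of the start: gccggtggagaGCGGGAAatcgcctgggg
Cdt1 and Cdc6 carry single, separate words in place of an overlapping pair. In Mcm6 both pairs lie within 109 bases before the start, and its promoter held 5 words in all, the most among these genes. The 120 bases that hold both pairs (chr1:128359706-128359825, minus strand) also contain an ATTGG, the reverse of the CCAAT box, between them:
Mcm6: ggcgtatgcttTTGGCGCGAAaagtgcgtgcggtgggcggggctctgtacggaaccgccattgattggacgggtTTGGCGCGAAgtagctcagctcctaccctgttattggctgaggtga
The promoters of Mcm2 and Mcm10 held none of the 4 words in their 300 bases. A match describes letters only and is not evidence of binding.

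The CHR element, read as TTTGAA or TTCGAA, is known from genes of mitosis and was looked for beside the E2F words. It was found in 2 of the 9 promoters (22.2%), those of Mcm7 and Mcm2, against 19.2% of all promoters. Of 21 promoters of a list of mitosis genes 81% held it, while 14.3% of them held an E2F word. CCAAT was in 77.8% of the promoters of the licensing genes and 37.4% of all promoters. Among replication fork genes 64% of 25 promoters held an E2F word, and among genes of helicase activation and firing 61.5% of 13 did. The share was lower among origin recognition genes (28.6% of 14), genes of licensing factor turnover (17.6% of 17) and E2F, RB and DREAM genes (42.1% of 19). It was 66.7% of 3 promoters of MCM relatives.

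Total counts per library ran from 11098031 to 19270976, and 16595 genes had enough counts to be tested, all 10 licensing genes among them. Levels are counts per 1000000 of the TMM-scaled library total (CPM), and a gene is called at an adjusted p under 0.05 in the quasi-likelihood test of edgeR with Benjamini-Hochberg adjustment over all genes tested. The groups differed widely: 65.5% of genes were called between saline and Control. Several marker lists moved with the groups. The summed CPM of 8 B lineage genes was 52.9 to 53.7 in Control libraries, 909 to 926 in saline and 418 to 462 in FMT libraries, with no gene at 0. Over 8 granulocyte genes the sum was 2270 to 2307, 149 to 162 and 863 to 982 in the same order, again with none at 0. The members moved both ways: Mpo, Elane, Prtn3 and Ctsg fell in saline (Mpo from 1277 to 29.9 CPM), while Ltf, S100a9 and Camp rose (S100a9 from 2.84 to 9.13) and S100a8 was not called. Of the erythroid markers, Car1 averaged 221, 1.99 and 87.7 CPM, Ermap 103, 0.805 and 45.4, and Klf1 28.6, 3.34 and 14.7, all lower in both treated groups than in Control. Epor and Tfrc fell less in saline, by 1.28 and 1.23 times. Over 8 stroma genes it was 63.2 to 64.0, 225 to 229 and 75 to 78.1, with Lepr, Col1a1 and Adipoq at 0 in a library. This sum rests largely on Pdgfrb in Control, which fell (57.1, 13.0 and 27.6 CPM), while the other 7 rose in both treated groups, Cxcl12 from 2.32 to 127 CPM in saline and 24.2 in FMT libraries. The 9 LT-HSC markers were detected in every library, and their sum was 1468 to 1516, 1033 to 1062 and 1212 to 1244. Genes of the sort also moved: Cd48 rose from 29.3 to 31.8 CPM in Control to 53.2 to 54.3 in saline (adjusted p = 5e-18) and was at 45.0 to 47.9 in FMT libraries. Slamf1, which encodes CD150, averaged 8.35, 34.5 and 24.4 CPM, and Kit 754, 410 and 537. Ly6a averaged 97.2, 118 and 108 CPM. Ptprc, which the labels do not name as a marker of the sort, averaged 375, 312 and 348 CPM. Xist averaged 0.870, 1201 and 682 CPM, and 4 Y-linked genes stood at 23.1% to 34.4% of Control in saline and at 59.4% to 71.1% in FMT libraries, so treatment and the sex of the cells cannot be told apart. The part of these marker lists in the results that follow was not tested, and in bulk RNA fewer cells of a type cannot be told from less RNA per cell.

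After 5-FU and saline, RNA of all 10 licensing genes rose over untreated cells, 9 of them by 1.68 to 1.99 times and Cdc6 by 1.23 times. Genes called higher made up 32.8% of all genes tested, and genes called lower 32.7%. The median log2 fold change of the 10 genes was 0.88, beside -0.0206 for all genes tested. In cells that also received FMT, 9 of the 10 genes fell below the saline level, by 1.22 to 1.29 times, where 19.2% of all genes were called lower and 17.7% higher. The median was -0.33, beside 0.00981 for all genes. Their level there was still above Control for all 10 genes, beside 25.0% of all genes called higher and 21.6% lower, with a median of 0.54 beside -0.00659. The libraries of the groups did not overlap for 10 of 10 genes between saline and Control (33.7% of all genes did so upward), for 9 of 10 between FMT and saline (23.7% downward) and for 10 of 10 between FMT and Control (27.1% upward).

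**Figure D1:**
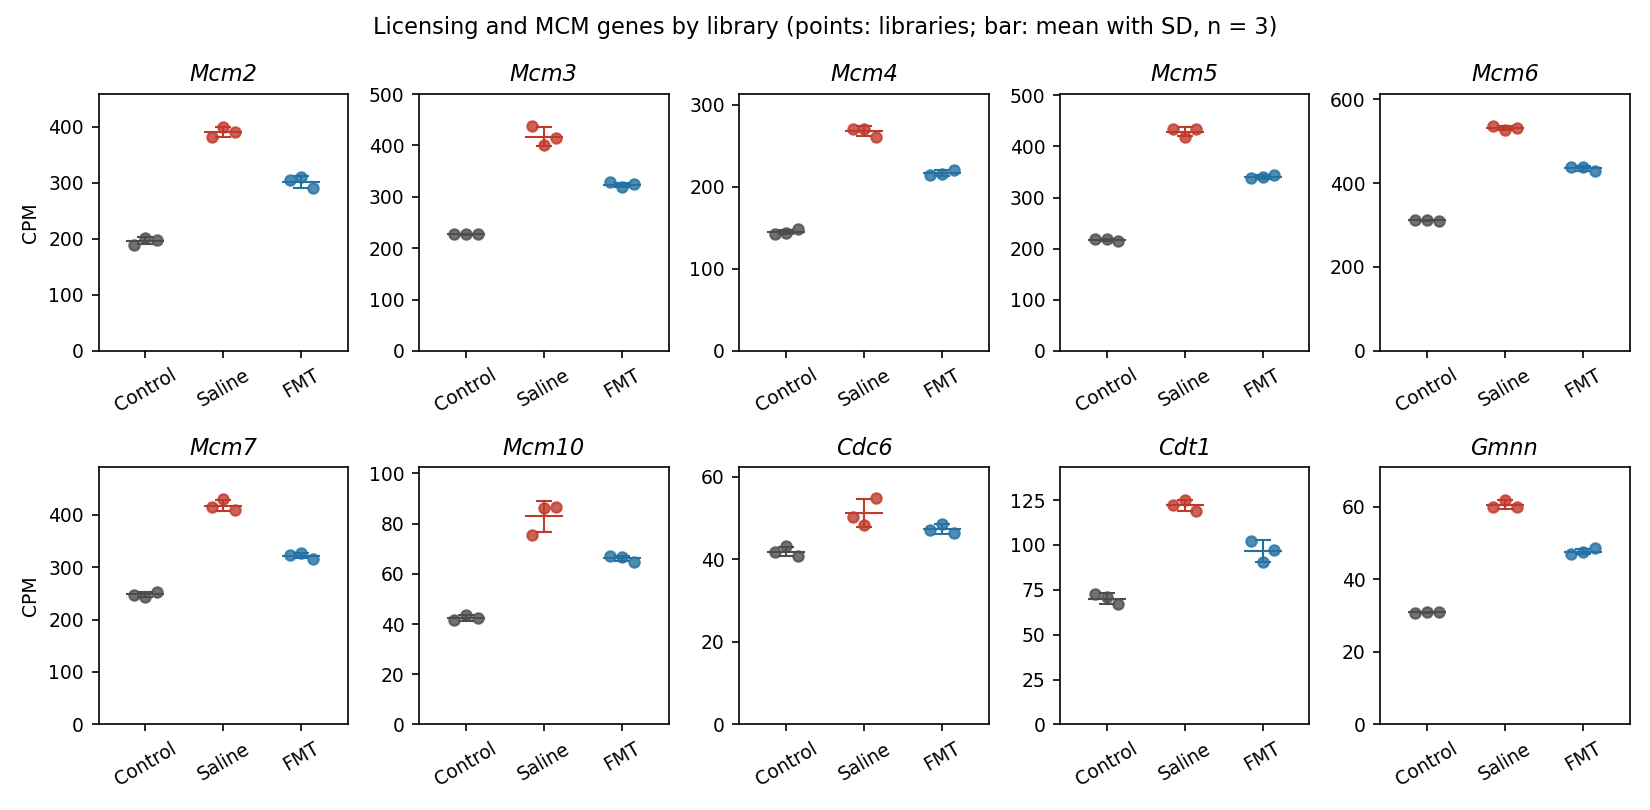
Level of each licensing gene in CPM (y axis, from 0) in the 3 libraries of Control, 5-FU+Saline and 5-FU+FMT (x axis); points are libraries, and the bar is the mean with its SD. The saline mean is highest and the Control mean lowest for each of the 10 genes, and in Cdc6 alone do the saline and FMT libraries overlap.

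Mcm2 (ENSMUSG00000002870.8, chr6:88883474-88898780, minus strand) encodes the subunit that also holds histones ahead of the fork. Its level was 189, 202 and 199 CPM in Control, 383, 400 and 391 in saline and 305, 311 and 291 in FMT libraries. The 3 groups stood apart, with FMT libraries about midway. The rise in saline was 0.99 on the log2 scale (SE 0.0315, adjusted p = 3.19e-42), or 1.99-fold, the largest of the 10 genes. In FMT the level fell by 0.37 from saline (SE 0.0302, adjusted p = 1.02e-17).

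Mcm5 (ENSMUSG00000005410.6, chr8:75109569-75128439, plus strand) encodes the neighbour of MCM2 in the ring, and MCM2 and MCM5 form the gate through which DNA enters. Control libraries held 218, 219 and 215 CPM, saline libraries 435, 418 and 434, and FMT libraries 338, 340 and 345. No group overlapped another. The rise of 0.98 (SE 0.0295, adjusted p = 9.15e-44) was next to that of Mcm2, and the gap between both was smaller than their standard errors. The log2 fold change of FMT over saline was -0.33 (SE 0.0283, adjusted p = 8.43e-17).

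Mcm3 (ENSMUSG00000041859.10, chr1:20802968-20820312, minus strand) encodes the subunit that meets Cdc6 and the origin recognition complex during loading. It was measured at 227, 227 and 228 CPM in Control, 437, 400 and 415 in saline and 328, 320 and 325 in FMT libraries. Control libraries were within 1 CPM of each other, and saline libraries spread most, with SD 18.6. The log2 fold changes were 0.88 for saline over Control (SE 0.0305, adjusted p = 1.29e-39) and -0.36 for FMT over saline (SE 0.0295, adjusted p = 1.14e-17).

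Mcm4, Mcm6 and Mcm7 encode the subunits that form a helicase core on their own in the test tube. Mcm4 (ENSMUSG00000022673.5, chr16:15623897-15637400, minus strand) was at 143, 144 and 149 CPM in Control, 271, 270 and 261 in saline and 214, 215 and 221 in FMT libraries. Mcm6 (ENSMUSG00000026355.11, chr1:128331590-128359664, minus strand) was at 312, 312 and 309 CPM, then 536, 526 and 531, then 439, 439 and 429 in the same order. Mcm7 (ENSMUSG00000029730.16, chr5:138164583-138172422, minus strand) was at 247, 243 and 253 CPM, then 414, 429 and 408, then 324, 326 and 316. Each gene kept its 3 groups apart, lowest in Control and highest in saline. Mcm6 and Mcm7 rose least among the subunits, by log2 fold changes of 0.77 (SE 0.0273, adjusted p = 3.63e-39) and 0.75 (SE 0.0295, adjusted p = 4.22e-36), while Mcm4 rose by 0.88 (SE 0.0333, adjusted p = 3.17e-37). The log2 fold changes of FMT over saline were -0.30 for Mcm4, -0.29 for Mcm6 and -0.37 for Mcm7, with adjusted p-values of 5.64e-13, 3.96e-15 and 1.05e-18. Mcm7 was the subunit nearest to Control in FMT libraries, with a log2 fold change of 0.38 over Control (SE 0.0301, adjusted p = 3e-18), beside 0.49 to 0.65 for the other 5.

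Mcm10 (ENSMUSG00000026669.14, chr2:4989714-5012791, minus strand) is no part of the ring and encodes the factor that activates the loaded helicase. Its level was 41.5, 43.7 and 42.3 CPM in Control, 75.6, 86.4 and 86.5 in saline and 67.0, 66.6 and 64.8 in FMT libraries. Saline replicate 1 was the lowest of its group but above every FMT library. The rise was 0.97 (SE 0.0580, adjusted p = 2.61e-25) and the log2 fold change of FMT over saline was -0.33 (SE 0.0545, adjusted p = 7.56e-07).

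Cdt1 (ENSMUSG00000006585.3, chr8:122568015-122573554, plus strand) encodes the loader that carries the ring to the origin and is destroyed in S phase. It was at 72.6, 70.9 and 66.9 CPM in Control, 122, 125 and 119 in saline and 102, 90.4 and 97.4 in FMT libraries. FMT libraries spread more than the others, with SD 6.03, and still overlapped neither group. Its log2 fold change was 0.80 for saline over Control (SE 0.0477, adjusted p = 1.38e-25) and -0.33 for FMT over saline (SE 0.0456, adjusted p = 4.51e-09).

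Gmnn (ENSMUSG00000006715.11, chr13:24751845-24761923, minus strand) encodes geminin, the inhibitor of Cdt1, which builds up from S phase until mitosis. Control libraries were at 30.8, 30.9 and 30.9 CPM, saline libraries at 59.8, 61.8 and 60.0, and FMT libraries at 47.1, 47.4 and 48.5. Gmnn was the gene with the fewest reads, 337 in the shallowest Control library, and its groups were nevertheless tight and separate. It rose by 0.97 (SE 0.0646, adjusted p = 6.77e-23), and FMT over saline gave -0.35 (SE 0.0607, adjusted p = 2.36e-06).

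Cdc6 (ENSMUSG00000017499.15, chr11:98907801-98923940, plus strand) encodes the ATPase that completes the loading machine with the origin recognition complex. Its level was 41.7, 43.2 and 40.9 CPM in Control, 50.2, 48.4 and 55.0 in saline and 47.1, 48.7 and 46.5 in FMT libraries. Treated libraries were all above Control, but the FMT and saline libraries overlapped. The rise in saline was 0.30 (SE 0.0646, adjusted p = 4.81e-05), the smallest of the 10 genes. FMT over saline gave -0.11 (SE 0.0633, adjusted p = 0.156), which did not pass. FMT over Control gave 0.18 (SE 0.0661, adjusted p = 0.0191), and this call was lost under upper-quartile scaling (0.12, adjusted p = 0.146), without Control replicate 3 (adjusted p = 0.0758) and without 5-FU+FMT replicate 2 (adjusted p = 0.0683).

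**Figure D2:**
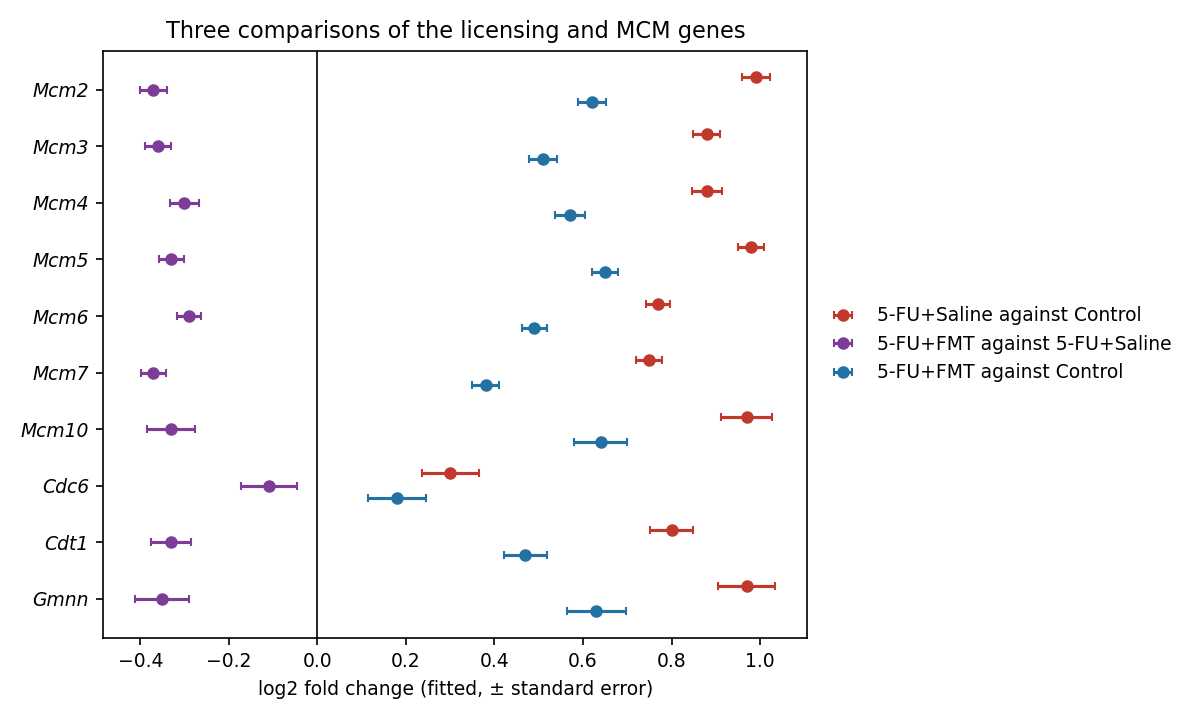
Fitted log2 fold change (x axis) of each licensing gene (y axis) for saline over Control, FMT over saline and FMT over Control, with standard errors as bars. Cdc6 lies nearest to 0 in each comparison, at 0.30, -0.11 and 0.18.

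Against Control, FMT libraries were higher by log2 fold changes of 0.62 for Mcm2, 0.51 for Mcm3, 0.57 for Mcm4, 0.65 for Mcm5, 0.49 for Mcm6, 0.64 for Mcm10, 0.47 for Cdt1 and 0.63 for Gmnn. Their adjusted p-values ran from 2.66e-31 for Mcm5 to 6.47e-13 for Gmnn.

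The 3 comparisons share their libraries and are not independent of each other. By mean CPM, FMT libraries lay between 43.8% (Mcm7) and 59.2% (Cdc6) of the way from Control to saline. The median over all 5443 genes higher in saline was 55.3%, with quartiles of 43.5% and 66.7%, and all 10 genes lay within these quartiles. Xist, given for its link with the sex of the cells, lay at 56.8%. Over 23 mitosis genes the median was 64.8%, from 54.3% to 83.8%. Over the 22 replication fork genes higher in saline it was 56.9%, from 34.6% to 70.4%. Over 20 genes of helicase activation and firing it was 53.6%, from 29.4% to 84.9%.

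Levels of different genes were compared as CPM per kilobase of exon. Mcm7 shares 557 of its exon bases (12.6%) with other genes, and reads there could not be assigned to 1 gene. Its values per kilobase may therefore be too low, and its place in the orders below is not settled. In Control the order was Mcm6 (66.7 ± 0.434, SD, n = 3), Mcm3 (60.6 ± 0.207), Mcm7 (56.0 ± 1.10), Mcm5 (54.4 ± 0.614), Mcm4 (40.5 ± 0.816), Mcm2 (28.3 ± 0.990), Cdt1 (22.3 ± 0.934), Gmnn (21.1 ± 0.0354), Cdc6 (8.02 ± 0.223) and Mcm10 (5.53 ± 0.145). Neighbours in this order did not overlap, but Mcm7 and Mcm5 were apart by about their spread (lowest Mcm7 value 55.0, highest Mcm5 value 54.9), as were Cdt1 and Gmnn (21.3 and 21.1). Mcm6 was above 96.2% of the genes tested in Control, while Mcm10 was above 50.6%. In saline the order changed in part: Mcm5, at 107 ± 2.34, was above Mcm7 at 94.2 ± 2.39, Gmnn at 41.3 ± 0.772 was above Cdt1 at 38.9 ± 1.00, and Mcm10 at 10.8 ± 0.815 and Cdc6 at 9.79 ± 0.656 overlapped. Mcm3 there, at 111 ± 4.96, overlapped both Mcm6 at 114 ± 1.14 and Mcm5. In FMT libraries Mcm3 and Mcm5 overlapped at 86.5 ± 1.04 and 85.4 ± 0.989, and Cdt1 and Gmnn at 30.8 ± 1.92 and 32.5 ± 0.494.

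The helicase ring holds 1 copy of each subunit. The summed level of its 6 RNAs was 305, 306 and 308 CPM per kilobase in Control, 565, 554 and 554 in saline and 443, 443 and 440 in FMT libraries. The groups did not overlap in this sum. Mcm6 made up 21.8% ± 0.242 of it in Control, 20.4% ± 0.106 in saline and 21.1% ± 0.198 in FMT libraries (SD, n = 3). Mcm7 made up 18.3% ± 0.303, 16.9% ± 0.513 and 16.5% ± 0.202, and Mcm5 17.8% ± 0.274, 19.3% ± 0.343 and 19.3% ± 0.300. Mcm2, the lowest subunit, held 9.23% ± 0.297, 10.1% ± 0.318 and 9.84% ± 0.296. Shares of Mcm3 and Mcm4 were between 19.6% and 19.9% and between 13.2% and 13.7%. These values rest on the annotated exon length, and the transcripts in use may be shorter. The share of Mcm7 may also be too low, and those of the others too high, because of the 12.6% of its exon bases shared with other genes.

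**Figure D3:**
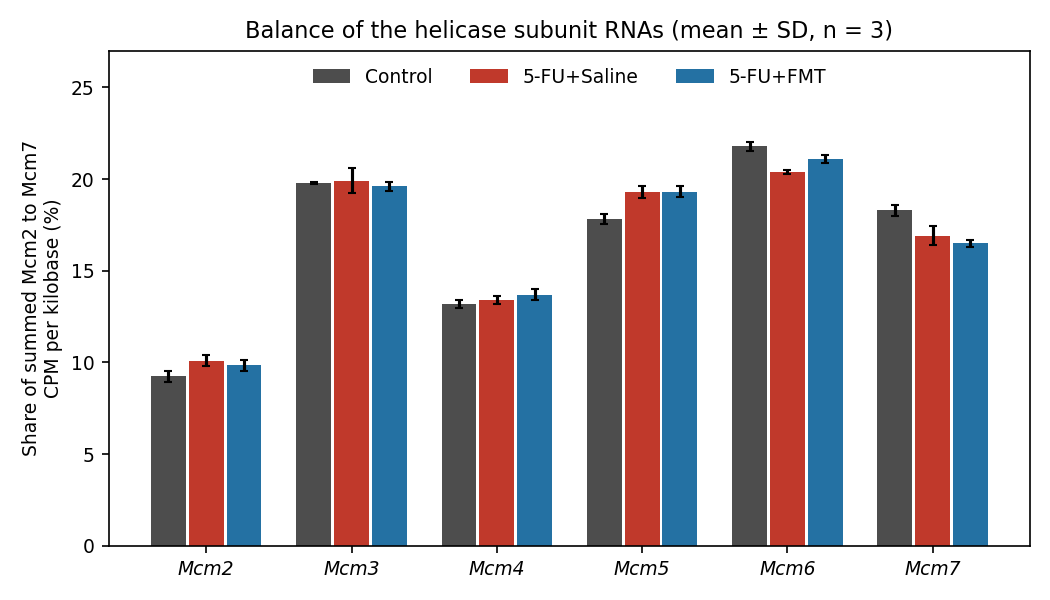
Share of each helicase subunit in the summed CPM per kilobase of Mcm2 to Mcm7 (y axis, percent, from 0) for each subunit (x axis) in the 3 groups; bars are means and whiskers SDs over 3 libraries. Mcm6 is highest in each group at 20.4% to 21.8%, and Mcm2 lowest at 9.23% to 10.1%.

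Cdt1 and its inhibitor rose nearly together. The log2 ratio of Cdt1 to Gmnn, both per kilobase, was 0.14, 0.0979 and 0.0150 in Control, -0.0660, -0.0844 and -0.12 in saline and 0.0220, -0.17 and -0.0924 in FMT libraries. Control libraries were all above saline libraries, and FMT libraries overlapped both groups. The mean ratio was 1.06 in Control, 0.940 in saline and 0.946 in FMT. The difference of saline from Control was -0.17 (exact permutation test, two-sided, p = 0.10, the smallest that 3 against 3 libraries allow; 0.30 after adjustment over 3 comparisons). FMT differed from Control by -0.16 (exact p = 0.20, adjusted 0.30) and from saline by 0.00944 (exact p = 0.90).

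Cdc6 moved less than the helicase genes, and the ratio of its level to the mean of the 6 subunits, added after the values were seen, is given without a test. On the log2 scale it was -2.67, -2.63 and -2.71 in Control, -3.29, -3.32 and -3.13 in saline and -3.03, -2.99 and -3.04 in FMT libraries. The groups did not overlap, and the mean ratio was 0.157 in Control, 0.105 in saline and 0.123 in FMT. The summed CPM of the 6 subunits was also set against that of the 23 mitosis genes, again without a test. This log2 ratio was -0.70, -0.67 and -0.67 in Control, -0.96, -0.96 and -0.98 in saline and -0.99, -0.98 and -0.96 in FMT libraries. It was lower in both treated groups than in Control, and the treated groups overlapped.

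**Figure D4:**
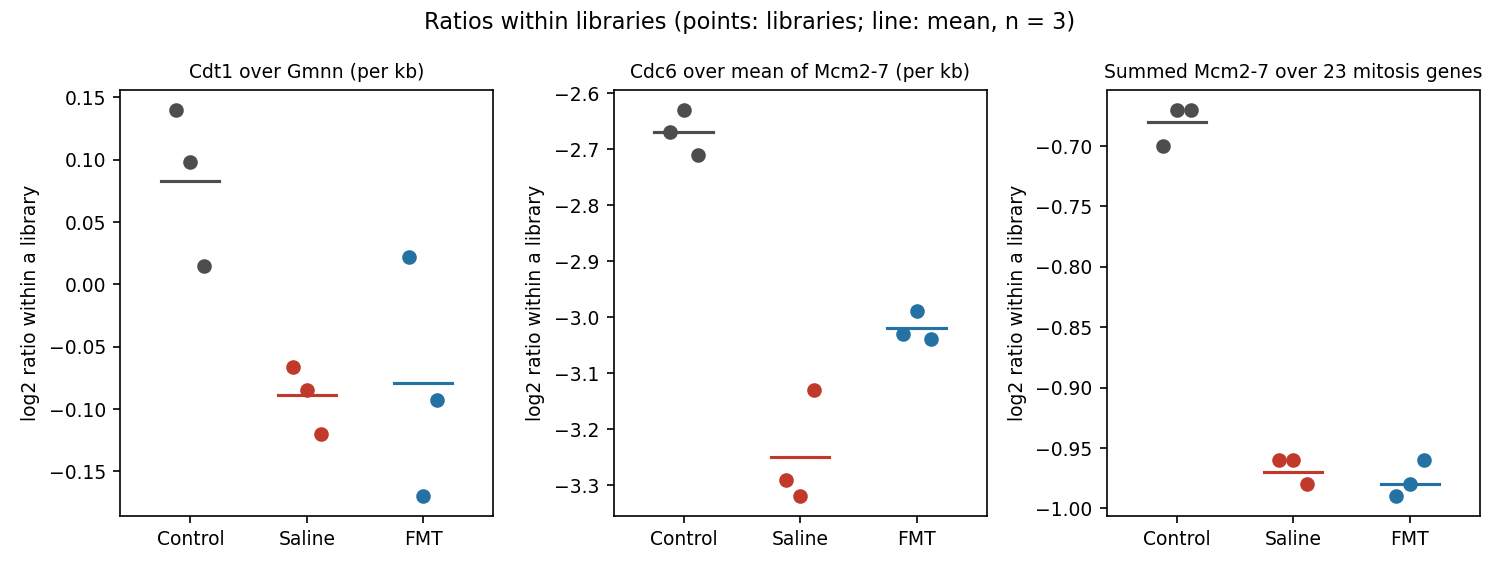
Log2 ratios within each library (y axes) for Cdt1 over Gmnn, Cdc6 over the mean of the 6 subunits, and the summed 6 subunits over 23 mitosis genes, by group (x axes); points are libraries and lines are means. Cdc6 over the subunits runs from -2.67 in Control to -3.25 in saline, with FMT at -3.02.

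The other genes of the pathway are given from 7 lists, in the order of the steps of replication. Of 9 origin recognition genes, 7 were higher in saline than in Control, 1 was lower and 1 was not called, with a median log2 fold change of 0.27. Orc1, the subunit whose level follows the cell cycle in many cells, rose from 11.7 ± 0.509 to 23.8 ± 0.392 CPM (log2 fold change 1.02, adjusted p = 1.61e-14). Kmt5a, a histone methyltransferase tied to licensing, rose from 123 ± 9.90 to 182 ± 3.02 CPM (0.57, adjusted p = 1.04e-21). Orc5, another subunit, fell from 26.7 ± 1.90 to 23.1 ± 1.27 CPM (-0.22, adjusted p = 0.028), a call lost with DESeq2 (adjusted p = 0.0743), with no filter (0.123) and without either of 2 libraries in each group, Control replicates 1 and 3 (0.069 and 0.141) and 5-FU+Saline replicates 1 and 3 (0.11 and 0.0772). In FMT against saline 6 of the 9 were lower and 3 not called, with a median of -0.13, and Orc1 fell to 17.9 ± 0.560 CPM (-0.41, adjusted p = 0.000287). Against Control 5 were higher in FMT and 4 not called, with a median of 0.17.

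Of 4 relatives and partners of the MCM proteins, 2 rose in saline and 2 were not called, with a median of 0.21. Mcm8, which works with Mcm9 in recombination repair, rose from 17.1 ± 0.525 to 31.3 ± 3.01 CPM (0.87, adjusted p = 6.74e-14), and Mcmbp, which binds MCM subunits outside chromatin, rose from 86.8 ± 5.26 to 123 ± 4.02 (0.49, adjusted p = 1.15e-15). Both fell in FMT against saline, Mcm8 to 26.4 ± 2.18 (-0.25, adjusted p = 0.017) and Mcmbp to 99.1 ± 5.56 (-0.31, adjusted p = 3.74e-08). Leaving out 5-FU+Saline replicate 2 or 5-FU+FMT replicate 1 ended the call of Mcm8 (adjusted p = 0.155 and 0.151). Mcm9 and Mcmdc2 passed in no comparison.

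All 20 genes of helicase activation and origin firing rose in saline, with a median of 0.82, beside 0.88 for the licensing genes. Ccna2, the cyclin A of S phase and later, went from 77.8 ± 3.28 to 217 ± 7.27 CPM (1.48, adjusted p = 2.36e-46), and Clspn, which couples the fork to the checkpoint, from 44.8 ± 3.22 to 106 ± 4.67 (1.23, adjusted p = 2.32e-33). In FMT 18 of the 20 fell below saline and 2 were not called (median -0.29), among them Ccna2 at 159 ± 6.62 CPM (-0.45, adjusted p = 1.6e-17) and Tipin, a part of the fork protection complex, at 77.9 ± 2.10 against 103 ± 3.70 (-0.40, adjusted p = 1.05e-10). Against Control 19 of the 20 were higher in FMT (median 0.53).

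Genes tied to the turnover of licensing factors came next. Of 15, 13 rose in saline, 1 fell and 1 was not called, with a median of 0.58. Ube2c and Cdc20, parts of the ubiquitin system that degrades geminin in mitosis, rose by log2 fold changes of 1.69 and 1.34 (adjusted p = 1.8e-45 and 1.48e-43). Genes tied to the breakdown of Cdt1 mostly rose: Dtl by 0.74, Ddb1 by 0.58, Cul4b by 0.46, Rbx1 by 0.40 and Skp2 by 1.57. Cul4a, a scaffold of the ligase that destroys Cdt1 in S phase, fell from 127 ± 2.37 to 114 ± 3.61 CPM (-0.15, adjusted p = 0.000854) and was the 1 gene of this list that rose in FMT against saline, to 126 ± 2.98 (0.14, adjusted p = 0.00536). In that comparison 13 of the 15 fell, with a median of -0.24, and against Control 13 were higher in FMT, with a median of 0.35.

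Of 23 replication fork genes, 22 rose in saline and 1 fell (median 0.67). Lig1, the ligase that joins Okazaki fragments, rose from 144 ± 4.22 to 280 ± 1.69 CPM (0.96, adjusted p = 3.25e-40), and Rpa1, the large subunit of the protein that covers single-stranded DNA, from 116 ± 5.66 to 235 ± 3.32 (1.02, adjusted p = 3.59e-38). The gene that fell was Pold4, the small subunit of DNA polymerase delta, from 20 ± 1.18 to 15.7 ± 0.615 CPM (-0.35, adjusted p = 0.00181). In FMT 17 fell below saline and 6 were not called (median -0.24). Against Control 21 were higher in FMT and Pold4 was lower (-0.24, adjusted p = 0.0483), with a median of 0.41. This call of Pold4 held with RLE and upper-quartile scaling, with the stricter filter and without Control replicate 3, and was lost in each other alternative run, with adjusted p up to 0.22 (no filter).

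The E2F, RB and DREAM list holds the factors that switch these genes on and off. Of 19, 14 rose in saline, 2 fell and 3 were not called (median 0.71). E2f2, an activator, rose most, from 21.0 ± 1.83 to 102 ± 2.86 CPM (2.28, adjusted p = 5.7e-45), and its partner Tfdp1 rose from 171 ± 2.41 to 345 ± 1.68 (1.02, adjusted p = 4.47e-43). The rises were not confined to these: E2f7 rose by 1.81, E2f8 by 0.93 and Rbl1, a pocket protein, by 0.89. Rbl2, the pocket protein of the DREAM complex in resting cells, fell from 104 ± 1.24 to 76.3 ± 4.27 CPM (-0.45, adjusted p = 3e-13), and Tfdp2, another E2F partner, from 122 ± 1.92 to 110 ± 2.37 (-0.15, adjusted p = 0.00137; 0.05 with no filter). In FMT against saline the directions were opposite: E2f2 fell to 62.7 ± 5.29 (-0.70, adjusted p = 4.48e-18) and Rbl2 rose to 86.8 ± 3.88 (0.18, adjusted p = 0.00164), within a list of which 11 fell, 2 rose and 6 were not called (median -0.21). Tfdp2 was the other that rose (0.11, adjusted p = 0.0262), a call lost with DESeq2 (adjusted p = 0.0859), RLE scaling (0.0595) and no filter (0.0563), and without 5-FU+Saline replicate 1 or 2 (0.0758 and 0.108) or 5-FU+FMT replicate 2 (0.105). Against Control, 12 of the 19 were higher in FMT and 1, Rbl2, was lower (-0.26, adjusted p = 3.13e-06), with a median of 0.44.

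All 23 mitosis genes rose in saline, with a median of 1.19 beside 0.88 for the licensing genes; the difference between the lists was not tested. Top2a, which untangles DNA, rose from 359 ± 2.01 to 923 ± 19.5 CPM (1.36, adjusted p = 1.78e-55), and Mki67, a proliferation marker, from 443 ± 15 to 991 ± 10 (1.16, adjusted p = 5.99e-53). In FMT 22 of the 23 were below saline (median -0.32), Top2a at 700 ± 32.3 CPM (-0.40, adjusted p = 1.87e-22) and Mki67 at 795 ± 4.14 (-0.32, adjusted p = 8.89e-19). All 23 were above Control in FMT, with a median of 0.86.

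**Figure D5:**
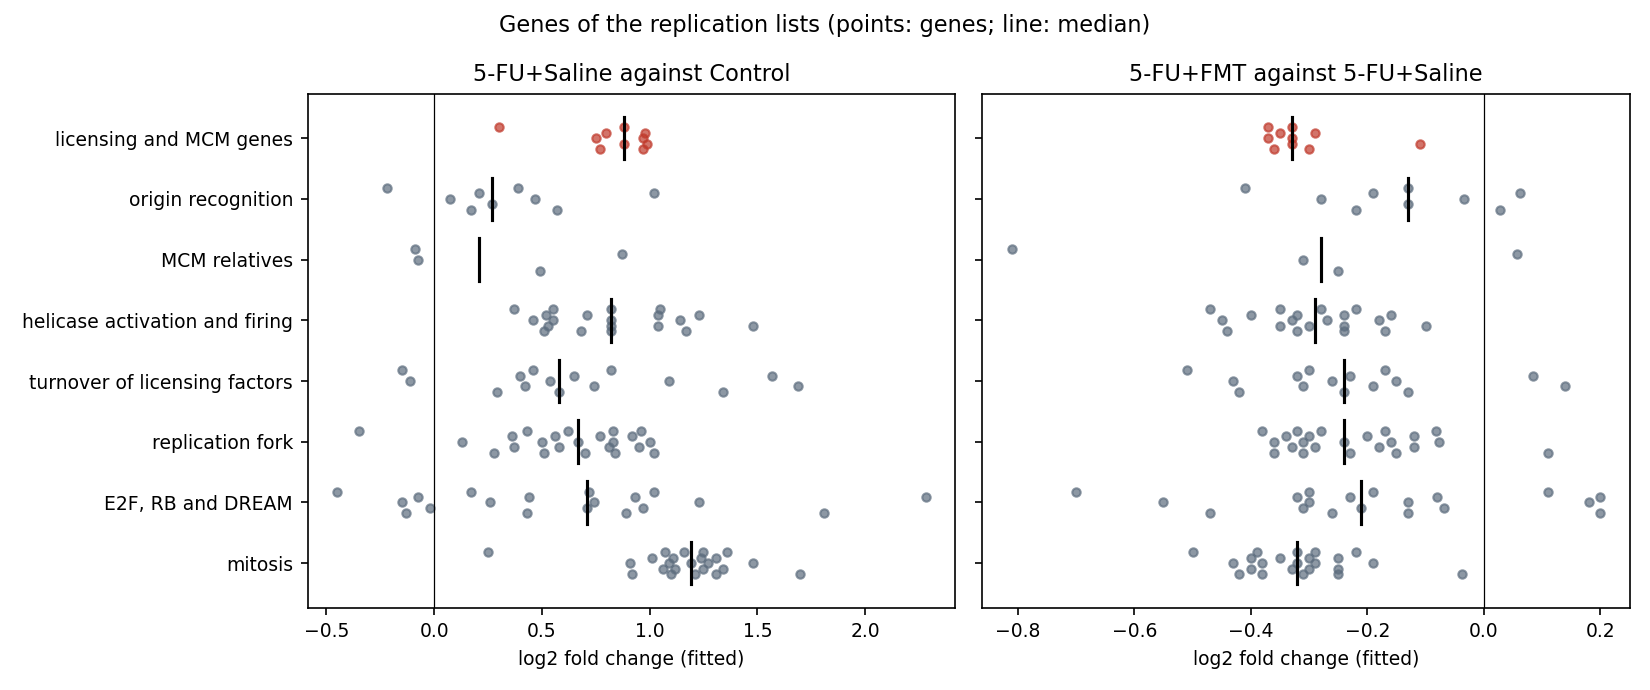
Fitted log2 fold change (x axes) of each gene of the licensing set and of 7 lists of replication and division (y axis), for saline over Control and FMT over saline; points are genes and lines are medians. The licensing genes have medians of 0.88 and -0.33, origin recognition genes 0.27 and -0.13, and mitosis genes 1.19 and -0.32.

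Genes outside the set were ranked by the root mean square difference of their centred log2 profile over the 9 libraries from the mean profile of the 10 genes. The 5 most alike were Atp5b (0.0147), Eif2s1 (0.0167), Eno1 (0.0185), Set (0.0187) and Tubb5 (0.0191), against a median of 0.329 over all genes of at least 10 CPM. They encode a subunit of ATP synthase, a translation initiation factor, a glycolytic enzyme, a histone chaperone and a beta tubulin. Atp5b, for example, was at 751 ± 12 CPM in Control, 1324 ± 2.15 in saline and 1063 ± 18 in FMT libraries. The members themselves were at 0.0249 (Mcm6) to 0.0781 (Mcm10) from their own mean, with Cdc6 apart at 0.227.

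Mcm4 and Mcm7 lie head to head with a gene on the other strand. Prkdc, the catalytic subunit of DNA-PK, starts 466 bases from Mcm4 and went from 61.9 ± 3.13 CPM in Control to 75.2 ± 2.0 in saline (0.27, adjusted p = 7.27e-06) and 70.2 ± 2.82 in FMT, where the change from saline did not pass (-0.0972, adjusted p = 0.147). Mcm4 itself rose by 0.88. Ap4m1, a subunit of an adaptor complex for vesicles, starts 420 bases inside the annotated 5′ end of Mcm7. It went against Mcm7, from 53.6 ± 2.79 CPM in Control to 39.7 ± 1.77 in saline (-0.42, adjusted p = 2.28e-08) and 45.2 ± 0.913 in FMT (0.18 over saline, adjusted p = 0.0209). That last call was lost with DESeq2 (adjusted p = 0.0572), without 5-FU+Saline replicate 1 or 2 (0.0697 and 0.0913) and without 5-FU+FMT replicate 2 (0.0775).

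Reads that could belong elsewhere were few for most members. Mcm7 shares 557 exon bases (12.6%) with Ap4m1 and Cops6 on the opposite strand and with Mir25 and Mir93, microRNAs inside it, and no strand option was recorded, so reads there could not be assigned to 1 gene. Mir25 and Mir93 had no counts and Mir106b, also inside Mcm7, had 5 over the 9 libraries. The exons of the other 9 members overlap no other gene. Mcm7 and Ap4m1 transcripts are identical over 247 bases, and Ap4m1 had 591 to 946 counts a library, 13.7% of those of Mcm7. Apart from Ap4m1, transcripts that look alike were found for 5 members, and their genes had 0 to 3 counts a library: Gm9430 for Cdc6 (95.2% identity over 1528 bases), Gm6510 for Gmnn, Gm9577 for Mcm4, Gm15654 for Mcm6 and Gm5487 for Mcm7 (97.7% over 2157 bases).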

How the data were processed

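RNA of sorted mouse cells was sequenced in 9 libraries, and the authors deposited 1 table of gene counts for each. Per the submitters' processing notes, Trim Galore 0.6.5, HISAT2 2.2.1, SAMtools and featureCounts 2.0.1 were used with mm10. Per the file headers, the authors counted pairs of reads in exons and added them up by gene (GENCODE M25), and no strand option is shown. Total counts per library were 11098031 to 19270976. The 10 genes had 337 to 10286 counts each, and relative counting error is largest at the low end of this range. The annotated exon length in the deposited tables was used for values per kilobase.

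The rest was computed from the counts. Genes were filtered with filterByExpr (16595 kept) and scaled by TMM, with factors of 0.984 to 1.012. The quasi-likelihood test of edgeR 4.0.16 was run on 1 model of the 3 groups in R 4.3.3 (with limma 3.58.1), and p-values were adjusted by Benjamini-Hochberg over the genes tested, separately for each comparison. Adjusted p-values come from this test where no other tool is named. The biological coefficient of variation was 3.74%. Standard errors are those of the fitted log2 fold change. The fit was also run on simulated counts, drawn with means and spread taken from the fitted data, and no result here rests on that run.

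The 10 genes, the 7 lists of replication and division and the 6 marker lists were chosen with earlier results of these data known. Some marker values are not reported here. All 10 genes were named in each comparison, together with up to 2 genes per list and direction with the smallest p among those called, genes that start within 1000 bases of a member on the other strand, and the 5 genes most alike in profile. Xist and marker genes were named in addition, after their values were seen. Symbols are those of the reference table, in which 55141 IDs had a match, and coordinates are those of the count tables. Promoters came from RefSeq, and look-alike transcripts were sought with blastn 2.17.0 (at least 90% identity over 200 bases) among GENCODE transcripts. DESeq2 1.42.0, limma-voom, RLE and upper-quartile scaling, no filter, a filter at 5 CPM in 3 libraries, fits of only the 2 groups compared, the replicate block and leaving out each library were tried. An alternative without immunoglobulin, globin, mitochondrial and rRNA genes was added after seeing the data.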

Additional observations from a re-analysis of the deposited data

How the results depend on the processing

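Of 540 values of the 10 genes under the alternatives, 537 kept their direction and their side of the threshold, 3 lost the call and 0 reversed. The 3 are those of Cdc6 in FMT against Control given in the report, with log2 fold changes of 0.12, 0.16 and 0.16; the cause was not tested. Upper-quartile scaling moved the median log2 fold change of all genes in saline against Control from -0.0206 to -0.0972, and the split of genes higher and lower in FMT against Control from 4151 and 3584 to 3315 and 4559; all 10 genes kept their direction. The difference in the log2 ratio of Cdt1 to Gmnn between FMT and saline changed sign without 5-FU+FMT replicate 1 (-0.0412, exact p = 0.40) and without 5-FU+Saline replicate 3 (-0.00420, exact p = 0.90), and ranged from -0.0412 to 0.0536 over the libraries left out.

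Replicate numbers are shared between groups. Deviations of same-numbered libraries from their group means had correlations from -0.00717 to 0.0156, and differently numbered libraries had -0.0272 to 0.0216. No common pattern by number was seen, but these values cannot settle whether same-numbered libraries share a day or litter. With the replicate block, 10847 genes were called in saline against Control in place of 10872, 6193 in place of 6123 in FMT against saline and 7717 in place of 7735 in FMT against Control, and the same numbers of licensing genes were called (10, 9 and 10). With the block the differences in the ratio of Cdt1 to Gmnn kept their size, with exact p-values of 0.25, 0.75 and 0.25, where 0.25 is the smallest that 3 pairs allow. Depth limits Gmnn most among the 10 genes, and the 3 libraries in a group limit the ratios, where no p under 0.10 was possible without the block.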
